A study of Mus musculus with 6 samples.

Results

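The genes described here are 10 regulators of slow and fast muscle fibre type, taken by symbol from the 55536 genes counted in the files. Sox6 and Nfix repress slow-fibre genes, while Prox1, Nfatc1, Nfatc2, Nfatc3, Nfatc4, Ppargc1a, Esrrg and Vgll2 favour them. All 10 were detected and tested. RNA was sequenced from 3 control and 3 conditional knockout (cKO) samples of satellite cells, the stem cells of skeletal muscle. Control mice carried Pax7CreErt2 with one floxed Hira allele (Hira fl/+), a genotype that the sample labels call WT, and cKO mice carried Pax7CreErt2 with both alleles floxed (Hira fl/fl). Mice of both groups were adult C57BL/6J males of 8 to 12 weeks fed a tamoxifen diet, so Cre, tamoxifen and at least one floxed allele were common to both. Because Pax7 drives the Cre, Hira was targeted in Pax7-expressing cells and their descendants only. Cells positive for CD34 and ITGA7 and negative for CD45, TER119 and SCA1 were sorted from muscle 5 days after injury. They were grown for 48 h in high-serum medium with bFGF. The injury method described is barium chloride injected into the tibialis anterior, and the muscle sorted is not named. The samples are described as independent RNA samples, but separate mice are not named, so p-values measure the spread between these samples.

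Adult muscle fibres are slow or fast according to the myosin heavy chain they carry. Slow fibres contract slowly, resist fatigue and express Myh7, whereas fast fibres express Myh2, Myh1 or Myh4. Sox6 and Nfix hold slow genes down in fetal and adult muscle, and Nfix is known to favour Sox6 and to lower Nfatc4. Calcineurin, a calcium-dependent phosphatase, sends NFATc proteins to the nucleus, where they act on slow genes together with MEF2 factors. Ppargc1a (PGC-1α) and Esrrg (ERRγ) drive mitochondrial and oxidative genes, Prox1 is a homeobox factor needed for slow gene expression, and Vgll2 is a muscle cofactor of TEAD proteins. In proliferating satellite cells and early myotubes these programs are immature, and embryonic myosin dominates.

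The slow myosin genes carry microRNAs that are known to act on Sox6, so their sequences are given with the sites they match. Mature microRNAs of the RefSeq table (GRCm38.p6) are written 5′ to 3′ with the seed, bases 2 to 8, in capitals. The miR-499 gene lies within Myh7b (chr2:155622893-155622913 for the mature strand) and the miR-208b gene within Myh7 (chr14:54975710-54975731, minus strand).
miR-499-5p: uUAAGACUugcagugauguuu
miR-208b-3p: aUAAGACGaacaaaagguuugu
Both seeds begin with UAAGAC and differ in their last base. In the Sox6 3′ untranslated region of GENCODE M21 (6046 bases), the complement of those shared bases, GTCTTA, occurred 8 times. A match to the whole 7-base seed was found 3 times for miR-499-5p and 1 time for miR-208b-3p. These 4 sites are shown in windows of 22 bases with the 6 letters of GTCTTA in capitals. The capitals begin at bases 277, 286, 599 and 621 of the region, and the base before them pairs with the last base of the seed.
miR-208b-3p match, capitals from base 277: gcccatcgccGTCTTAtgagtc
miR-499-5p match, capitals from base 286: cgtcttatgaGTCTTAcatttc
miR-499-5p match, capitals from base 599: tattttaaaaGTCTTAcaggag
miR-499-5p match, capitals from base 621: acactgcaaaGTCTTAgacaat
Among 636 genes whose region was within 20% of that length, 75.8% held GTCTTA and 0.314%, 2 genes with Sox6 counted, held it as often as Sox6 did. A 7-base miR-499-5p match was found in 39.6% of them. Of the other regulators, Esrrg held GTCTTA 2 times, Nfatc1, Nfatc2 and Nfatc3 held it 1 time each, and it was not found in the longest annotated regions of Nfix, Prox1, Nfatc4, Ppargc1a and Vgll2. These letters describe the sequence and do not show that a site is used.

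The 6 libraries held 47944477 to 63323577 counted reads. Levels are given as CPM, counts scaled by the total of a library, and differences as log2 fold changes of cKO over control by the quasi-likelihood test of edgeR. P-values were adjusted by Benjamini-Hochberg over all 22404 genes that could be tested, with a threshold of 0.05. The targeted gene Hira, a chaperone of histone H3.3, averaged 5.89 ± 0.64 CPM over the controls and 4.39 ± 0.898 CPM over the cKO samples (SD, n = 3 each). Single samples were at 6.63, 5.5 and 5.55 CPM in control and 3.36, 4.95 and 4.87 CPM in cKO, lowest in cKO replicate 1. The log2 fold change of Hira was -0.43 (SE 0.12, adjusted p = 0.0237), and -0.52 to -0.29 with 1 library left out. The call was kept in 5 of 6 omissions and lost without control replicate 1 (-0.34, adjusted p = 0.104). Satellite cell and myoblast markers were present, with control means of 39.3 CPM for Pax7 and 773 CPM for Myod1. Of 12 such markers 10 fell in cKO and 0 rose, beside 6.46% and 9.38% of all genes tested. Pax7 was at a log2 fold change of -0.19 (adjusted p = 0.00656). Myog, a gene of differentiating myoblasts, was at 2112 CPM in control. In bulk RNA, fewer cells of a type and less RNA per cell cannot be told apart.

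Of the 10 regulators, Nfatc4 rose in cKO, Sox6, Nfatc1 and Nfatc3 fell, and 6 did not pass the threshold. Over all genes tested, 15.8% passed it, 9.38% higher and 6.46% lower in cKO. These shares are the background for the counts of every list below. Of all genes tested, 55.2% averaged under 651 counts, where counting error exceeds the variation between replicates. Lists of abundant genes can therefore pass the threshold more often than that background. The median log2 fold change of the 10 was -0.06, beside -0.0011 for all genes. Samples of the 2 groups did not overlap in CPM for 5 of the 10 (Sox6, Nfatc1, Nfatc3, Nfatc4 and Vgll2), a pattern that 31.4% of all genes tested showed. Only Sox6 and Nfatc4 kept their calls in all 11 alternative analyses.

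**Figure D1:**
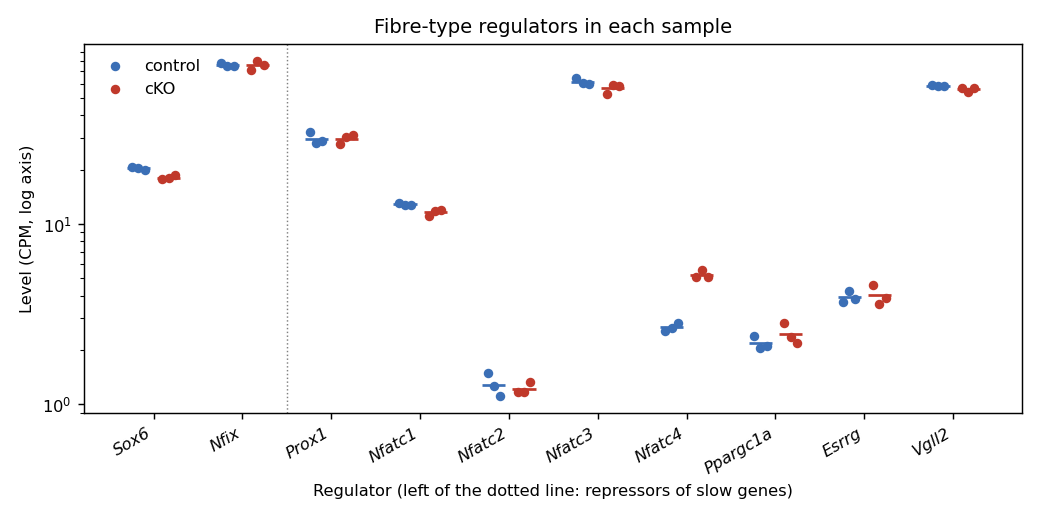
Level of each regulator in each sample, in CPM on a log axis, with 3 control (blue) and 3 cKO (red) points and a line at each group mean. Nfatc4 is at 2.55 to 2.82 CPM in control and 5.05 to 5.56 CPM in cKO, and the other 9 regulators have group means that lie close together.

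Relative to transcript length, the regulators spanned a wide range of levels. Control means per kilobase of exon were 35.2 CPM for Vgll2, 10.4 for Nfix, 5.23 for Nfatc3, 3.54 for Prox1, 1.72 for Nfatc1 and 1.38 for Sox6. Esrrg followed at 0.634 CPM per kilobase, then Nfatc4 at 0.46, Ppargc1a at 0.332 and Nfatc2 at 0.122. No neighbours in this order overlapped between samples within a group, in control or in cKO. In cKO the order was the same except that Nfatc4, at 0.902 CPM per kilobase, stood above Esrrg at 0.647. None of the 75-base windows of the 10 regulators' transcripts occurred in a transcript of another gene, so reads could not be split with paralogs over a full read length.

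Among the repressors of slow genes, Sox6 fell and Nfix did not pass the threshold. Sox6 (ENSMUSG00000051910, chr7:115470872-116038796, minus strand, mm10), an HMG-box factor that binds and silences slow myosin genes, was at 20.8, 20.5 and 19.8 CPM in the control samples. In cKO it was at 17.7, 17.9 and 18.6 CPM, each below the lowest control. The means were 20.4 ± 0.518 CPM and 18.1 ± 0.472 CPM (SD, n = 3 each), from 1178 to 1300 counts per control library and 848 to 1059 per cKO library. The log2 fold change was -0.20 (SE 0.05, 95% interval -0.298 to -0.0997, adjusted p = 0.00783). Of the 1448 genes that fell in cKO, 51.2% changed by more, and their median was -0.20, so Sox6 was a typical member of that group in size. Leaving out any 1 library gave values from -0.23 to -0.18 and adjusted p-values of 0.0116 to 0.0396.

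Nfix (ENSMUSG00000001911, chr8:84699876-84800344, minus strand), a nuclear factor I protein that brings on the fetal program of myogenesis, was at 77.9, 75.2 and 75.4 CPM in control and 71.6, 80.2 and 76.4 CPM in cKO. The groups overlapped, with means of 76.2 ± 1.52 CPM and 76.1 ± 4.3 CPM. The 95% interval of its log2 fold change was -0.109 to 0.058 (adjusted p = 0.75). Of its exonic bases 1.918% overlap genes on the other strand, G430095P16Rik and Lyl1. Among 5 relatives of both repressors (Sox5, Sox13, Nfia, Nfib, Nfic), 1 fell and 0 rose, with a median log2 fold change of -0.02. The one that fell was Nfic, another nuclear factor I gene, from 87.2 ± 1.49 to 76.2 ± 2.43 CPM (log2 fold change -0.22, adjusted p = 0.000275).

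**Figure D2:**
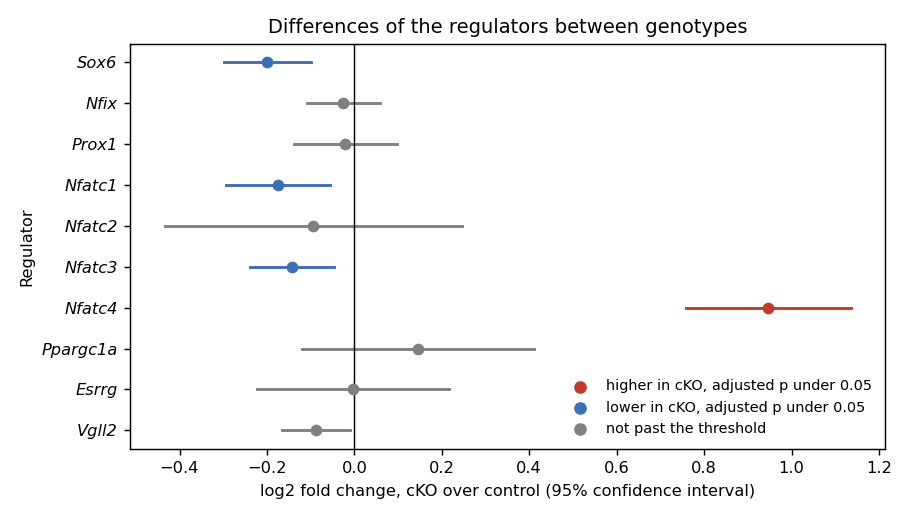
Log2 fold change of cKO over control for each regulator (points) with its 95% confidence interval (lines), red or blue where the adjusted p was under 0.05 and grey otherwise. The Nfatc4 interval runs from 0.76 to 1.14, far from the others, and the intervals of Nfix, Prox1, Nfatc2, Ppargc1a and Esrrg cross 0.

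Prox1 (ENSMUSG00000010175, chr1:190118035-190170714, minus strand) showed no detectable difference. It was at 32.2, 28.0 and 28.9 CPM in control and 27.8, 30.4 and 31.0 CPM in cKO, with overlapping groups. Means were 29.7 ± 2.23 and 29.7 ± 1.66 CPM, and the 95% interval of the log2 fold change was -0.139 to 0.0964 (adjusted p = 0.861). Prox1 is also a master regulator of lymphatic endothelium. The lymphatic marker Lyve1 was at 0 to 0.159 CPM and Mmrn1 at 0 to 0.0354 CPM per library, and neither was tested. Of 7 lymphatic marker entries, with Ccl21a held under 2 identifiers that both had 0 counts, 3 were tested. Of these 2 rose, Pdpn (log2 fold change 0.24) and Flt4 (1.22). The summed level of the list was 79.8 to 85.3 CPM in control and 99.2 to 102 CPM in cKO, most of it Pdpn.

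In the NFATc family Nfatc4 rose, while the more abundant Nfatc1 and Nfatc3 fell with calls close to the threshold. Of 11 alternative analyses, Nfatc1 kept its call in 1 and Nfatc3 in 5. Nfatc4 (ENSMUSG00000023411, chr14:55823144-55833943, plus strand) was at 2.55, 2.65 and 2.82 CPM in control and 5.05, 5.56 and 5.10 CPM in cKO. Every cKO library stood well above every control library. The means were 2.67 ± 0.137 and 5.24 ± 0.282 CPM (SD, n = 3 each), from 144 to 173 counts per control library and 242 to 329 per cKO library. The fold change was 1.93, a log2 value of 0.95 (SE 0.09, 95% interval 0.7585 to 1.1353, adjusted p = 2.12e-06). Of the 2101 genes that rose in cKO, 20.1% changed by more, and the median of those 2101 was 0.41. Without any 1 library the log2 fold change stayed between 0.90 and 0.99.

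The RefSeq promoter of Nfatc4, from 250 bases before to 50 after the RefSeq start, is shown because Nfatc4 is the regulator that changed most. It lies at chr14:55824545-55824844 (GRCm38.p6, plus strand), 1651 bp from the start of the GENCODE gene. Capitals mark the NFAT core letters GGAAA, or TTTCC where they are on the other strand.
Nfatc4 promoter: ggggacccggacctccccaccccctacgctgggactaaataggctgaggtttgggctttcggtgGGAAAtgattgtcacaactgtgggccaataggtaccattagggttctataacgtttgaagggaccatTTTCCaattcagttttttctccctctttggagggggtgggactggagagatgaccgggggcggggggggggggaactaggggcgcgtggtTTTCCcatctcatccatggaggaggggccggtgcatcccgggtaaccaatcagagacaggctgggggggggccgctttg
It held GGAAA 3 times over both strands, a number reached by 9.42% of 32851 RefSeq promoters, and the nuclear factor I motif TTGGC 1 time, which 46.7% of promoters hold. The Sox core letters AACAAT were not in this window.

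Markers of other cells rose with Nfatc4, and their part in its rise was not tested. Pdgfra, the defining receptor of fibro-adipogenic cells, rose from 22.9 ± 1.31 to 51.4 ± 4.29 CPM, and Myh11, a smooth muscle myosin, from 28.1 ± 1.21 to 56.2 ± 4.65 CPM. Among 10 fibro-adipogenic markers tested 7 rose and 0 fell, beside 9.38% and 6.46% of all genes tested. Their summed levels were 1218 to 1302 CPM in control and 1629 to 1808 CPM in cKO. Ly6a (SCA1), which the sort selects against, was at 3.04 ± 0.166 and 3.66 ± 0.241 CPM (adjusted p = 0.115). Of 7 smooth muscle and pericyte markers tested 5 rose and 2 fell, and their summed level was 3251 to 3310 CPM in control and 3530 to 3669 CPM in cKO. Relative to the control mean, Nfatc4 was at 1.89, 2.08 and 1.91 in cKO replicates 1, 2 and 3, Pdgfra at 2.21, 2.45 and 2.08, and Myh11 at 1.93, 2.19 and 1.88. Nfatc4 had 242 to 329 counts per cKO library, so the order of its replicates is uncertain. A link between these genes was not tested. The paper reports Pdgfra, and the endothelial and neuronal genes Cdh5, Nefl and Nefm of the lists below, as raised in a Hira-deficient myoblast line. Bulk RNA does not show which cells carried the rises here.

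Immune, endothelial and glial markers also differed between groups, beside 9.38% of all genes tested that rose and 6.46% that fell. Of 16 macrophage markers 14 rose and 0 fell, and their summed level was 147 to 152 CPM in control and 311 to 364 CPM in cKO. Ptprc (CD45), another gene whose protein the sort selects against, went from 1.43 ± 0.137 to 2.83 ± 0.184 CPM (log2 fold change 0.96, adjusted p = 5.22e-05). Blood endothelial markers rose in 5 of 11 cases, with summed levels of 19.0 to 21.3 CPM in control and 29.4 to 35.6 CPM in cKO. Glial and neuronal markers rose in 2 of 5 tested cases, with 54.3 to 56.3 CPM in control and 85.7 to 90.1 CPM in cKO. T-cell markers, which matter for Nfatc1 and Nfatc2 because both act in lymphocytes, summed to 0.847 to 1.17 CPM in control and 0.845 to 1.11 CPM in cKO, and 1 of 8 was tested and did not pass. The defining T-cell gene Cd3d was at 0 to 0.0326 CPM.

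**Figure D3:**
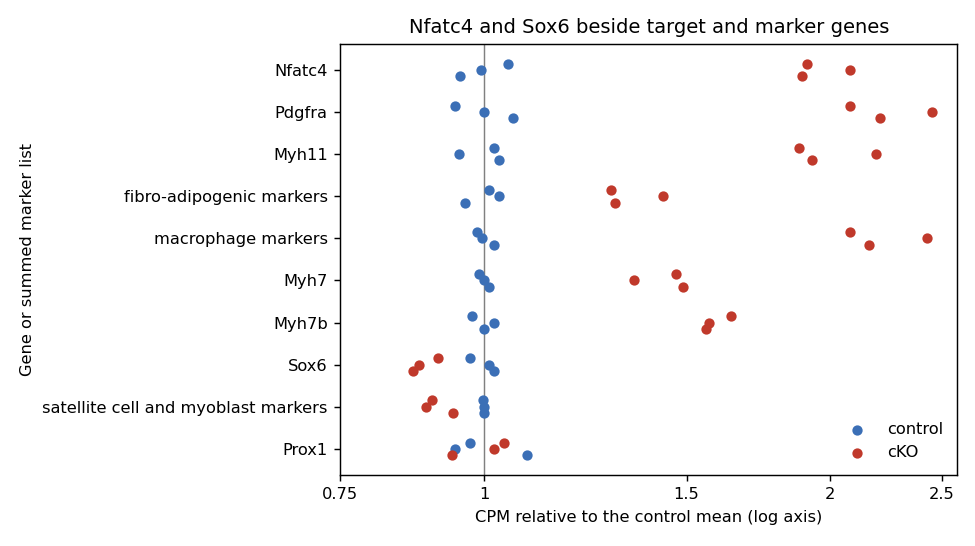
CPM of each library divided by the control mean, on a log axis, for Nfatc4, Sox6, Prox1, the slow myosins and marker genes or summed marker lists, with control in blue and cKO in red. Nfatc4 in cKO is at 1.89 to 2.08, Pdgfra at 2.08 to 2.45 and Myh11 at 1.88 to 2.19. Summed macrophage markers are at 2.08 to 2.43, and the summed fibro-adipogenic list, which includes Pdgfra, is at 1.29 to 1.43. Sox6 in cKO is at 0.867 to 0.912, beside 0.890 to 0.939 for satellite cell and myoblast markers.

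Nfatc3 (ENSMUSG00000031902, chr8:106058840-106130537, plus strand), the most abundant NFATc gene here and one known to act in proliferating and fusing myoblasts, was at 64.0, 60.1 and 59.8 CPM in control. In cKO it was at 52.3, 58.9 and 58.1 CPM, so the groups were separate by a narrow margin. The log2 fold change was -0.14 (SE 0.05, 95% interval -0.238 to -0.046, adjusted p = 0.044), smaller than that of 79.7% of the genes that fell. Its call was lost without control replicate 1, 2 or 3 or cKO replicate 1, with values of -0.17 to -0.09 over all 6 omissions and an adjusted p of up to 0.184. Of its exonic bases 1.868% overlap Esrp2 on the other strand.

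Nfatc1 (ENSMUSG00000033016, chr18:80606205-80713071, minus strand), the NFAT that senses slow nerve activity in adult fibres, was at 13.1, 12.7 and 12.8 CPM in control. In cKO it was at 11, 11.8 and 12 CPM, all below control. The means were 12.9 ± 0.246 and 11.6 ± 0.548 CPM, with a log2 fold change of -0.17 (SE 0.06, 95% interval -0.2945 to -0.0548, adjusted p = 0.0471). This call stood at the edge of the threshold and was lost when any 1 library was left out, with adjusted p-values of 0.0506 to 0.144 and log2 fold changes of -0.21 to -0.14. Nfatc2 (ENSMUSG00000027544, chr2:168476410-168601657), which recruits myoblasts to growing myotubes, was the rarest of the 10. It was at 1.49, 1.26 and 1.11 CPM in control and 1.17, 1.17 and 1.33 CPM in cKO, and its 95% interval of -0.434 to 0.2456 (adjusted p = 0.776) was the widest of all 10 regulators.

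Per kilobase of exon, Nfatc4 made up 5.62%, 6.17% and 6.55% of the summed NFATc reads in control replicates 1, 2 and 3. In cKO the corresponding shares were 12.6%, 12.5% and 11.6%. Nfatc3 went from 68.9 to 70.0% in control to 64.6 to 65.5% in cKO, and Nfatc1 from 22.6 to 23.1% to 20.6 to 21.2%. Nfatc2 held 1.41 to 1.80% in control and 1.44 to 1.66% in cKO. Only Nfatc2 overlapped between the groups, and with 3 samples a side an exact permutation test of a single share cannot go below 0.1. Shares within a family are tied to each other, so a rise of one lowers the rest.

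**Figure D4:**
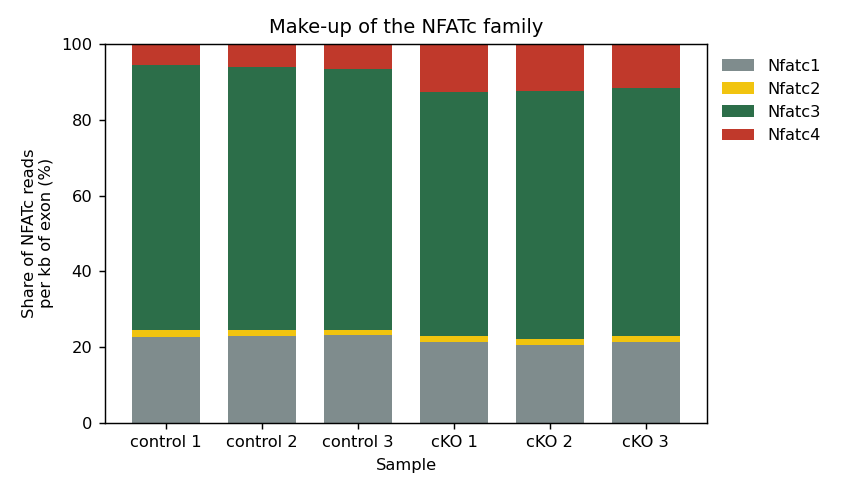
Share of each NFATc gene in the summed NFATc reads per kilobase of exon, as a percentage, in each of the 6 samples. The red Nfatc4 segment is 5.62 to 6.55% in control and 11.6 to 12.6% in cKO, and Nfatc3 (green) is the largest segment in all 6.

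Activity of NFAT proteins depends on calcineurin and on kinases that return them to the cytoplasm, and RNA levels do not measure it. Of 17 genes that handle calcineurin or NFAT, 6 fell and 0 rose in cKO, around a median log2 difference of -0.06. Over all genes tested 6.46% fell and 9.38% rose. The largest falls were Homer2, a scaffold that tunes NFAT signaling (from 1.18 ± 0.109 to 0.784 ± 0.0889 CPM, log2 fold change -0.61, adjusted p = 0.023), and Nfat5, a calcineurin-independent relative that responds to osmotic stress (67.0 ± 2.26 to 58.2 ± 3.84 CPM, -0.23, adjusted p = 0.00251). The NFAT kinase Dyrk2 fell by 0.17 and the calcineurin catalytic subunit Ppp3cb by 0.16 on the log2 scale. DESeq2 gave Homer2 an adjusted p of 0.105, Homer2 kept its call in 2 of 6 omissions of a library, and Ppp3cb kept its call in 3 of 6. Rcan1, the calcineurin inhibitor whose transcription is a common readout of NFAT activity, was at 34.1 ± 1.2 and 31.6 ± 1.89 CPM with an adjusted p of 0.0803, named here after its value was seen. Without control replicate 1, 3 of the 17 passed the threshold.

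The oxidative regulators Ppargc1a and Esrrg did not pass the threshold. Ppargc1a (ENSMUSG00000029167, chr5:51454250-51567726), the coactivator of mitochondrial genes, was at 2.39, 2.05 and 2.12 CPM in control and 2.84, 2.37 and 2.20 CPM in cKO. Replicates of the groups overlapped, and the 95% interval of the log2 fold change was -0.119 to 0.4118 (adjusted p = 0.51). Esrrg (ENSMUSG00000026610, chr1:187608791-188214885, plus strand), an orphan nuclear receptor, was at 3.68, 4.26 and 3.86 CPM in control and 4.57, 3.60 and 3.89 CPM in cKO. Its interval of -0.223 to 0.216 (adjusted p = 0.99) was centred on 0. The Esrrg interval holds a fall of the size found for Sox6, so such a fall was not detectable at this depth, while the lower bound for Ppargc1a was nearer to 0.

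Of 16 targets of PGC-1α and ERR proteins, 1 rose and 3 fell, beside 9.38% and 6.46% of all genes tested. Their median log2 fold change was -0.05. The genes that fell were Pdk4, which shuts glucose carbon out of mitochondria (68.2 ± 2.16 to 57.4 ± 1.71 CPM, log2 fold change -0.27, adjusted p = 0.000114), Fndc5, the precursor of irisin (-0.16), and Cox5b, a cytochrome oxidase subunit (-0.12). Vegfa, an angiogenic factor, rose from 204 ± 4.36 to 223 ± 3.04 CPM (log2 fold change 0.10, adjusted p = 0.0282). Cox5b kept its call in 2 of 6 omissions of a library and Vegfa in 3 of 6. Without control replicate 1 or 2, 2 of the 16 passed.

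Vgll2 (ENSMUSG00000049641, chr10:52022502-52028471, plus strand), the highest of the 10 per kilobase, was at 58.8, 57.8 and 57.8 CPM in control. It was at 56.6, 53.7 and 56.7 CPM in cKO, all just below the controls. The means were 58.2 ± 0.578 and 55.7 ± 1.73 CPM. The log2 fold change of -0.09 (SE 0.04, 95% interval -0.166 to -0.0097, unadjusted p = 0.0302 from edgeR) had an adjusted p of 0.129 and failed the correction. Among its relatives and that of Prox1, Vgll3, Vgll4 and Prox2 were tested and 0 passed with edgeR or DESeq2, with 1 lower at an unadjusted p under 0.05, and Vgll1 had at most 0.0209 CPM in any library.

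Among fibre genes, slow myosin rose while most of the others that changed went down. Of 15 slow-fibre genes 7 rose and 2 fell, beside 9.38% and 6.46% of all genes tested, with a median log2 fold change of 0.04. Myh7, the slow myosin heavy chain, was at 436, 430 and 426 CPM in control and 641, 583 and 632 CPM in cKO. All cKO values were well above control, with a log2 fold change of 0.50 (SE 0.04, adjusted p = 2.35e-07). Myh7b, a related heavy chain, was at 38.2, 39.0 and 37.3 CPM in control and 59.7, 59.9 and 62.6 CPM in cKO (log2 fold change 0.65, SE 0.04, adjusted p = 1.31e-08). The slow light chain genes Myl2 and Myl3 rose from very low levels, 0.498 ± 0.134 to 0.958 ± 0.202 CPM (log2 fold change 0.90, adjusted p = 0.0163) and 0.94 ± 0.175 to 1.62 ± 0.056 CPM (0.76, adjusted p = 0.00445). Without control replicate 1, Myl2 had a log2 fold change of 0.72 and an adjusted p of 0.0757. The slow-fibre genes that fell were Mb, the oxygen carrier myoglobin (249 ± 7.5 to 211 ± 7.93 CPM, log2 fold change -0.26, adjusted p = 9.06e-05), and Csrp3, a Z-disc LIM protein (-0.27, adjusted p = 0.00271). Myh7, Myh7b, Myl2 and Myl3 are also genes of heart muscle, which these lists do not separate from slow fibres.

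Of 15 fast-fibre genes tested 5 fell and 0 rose, beside 6.46% and 9.38% of all genes tested. Their median log2 fold change was -0.11, and Pvalb and Myoz3 were too low to test. Myh2, the oxidative fast heavy chain, fell from 265 ± 5.84 to 210 ± 25.5 CPM (log2 fold change -0.36, adjusted p = 0.000942). Myh1 fell by 0.21, Mylpf, the fast regulatory light chain, by 0.22, and Ckm, muscle creatine kinase, by 0.19 on the log2 scale. Myh4, the fastest heavy chain, was at 98.9 ± 3.1 and 89.1 ± 11.7 CPM (adjusted p = 0.107). All 3 developmental genes fell, Myh3 (embryonic, 10803 ± 203 to 9739 ± 524 CPM, log2 fold change -0.17), Myh8 (perinatal, -0.17) and the light chain Myl4 (-0.36). Myh1 and Mylpf lost their calls without any 1 of the controls or without cKO replicate 3, Ckm without control replicate 1 (adjusted p = 0.0626), and Myh8 without any 1 of the controls or without cKO replicate 2. DESeq2 gave adjusted p-values of 0.142 for Myh1, 0.157 for Mylpf and 0.213 for Myh8. The count of fast-fibre genes that passed was 3 without any 1 control and 10 without cKO replicate 1.

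Per kilobase, slow heavy chains (Myh7 and Myh7b) formed 2.42, 2.47 and 2.44% of the 7 skeletal heavy chain genes in control and 3.88, 3.98 and 3.86% in cKO. Fast chains made up 17.0, 17.1 and 17.1% in control against 17.5, 15.5 and 15.9% in cKO, overlapping between groups, and the rest was developmental. The ratio of slow to fast was 14.2 to 14.4% in control and 22.1 to 25.6% in cKO. Reads can be split among these paralogs, since 15.8% of the 75-base windows of Myh1, 13.9% of Myh2, 10.6% of Myh7 and 9.68% of Myh4 occur in another gene, and 0.00% of those of Myh7b do.

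**Figure D5:**
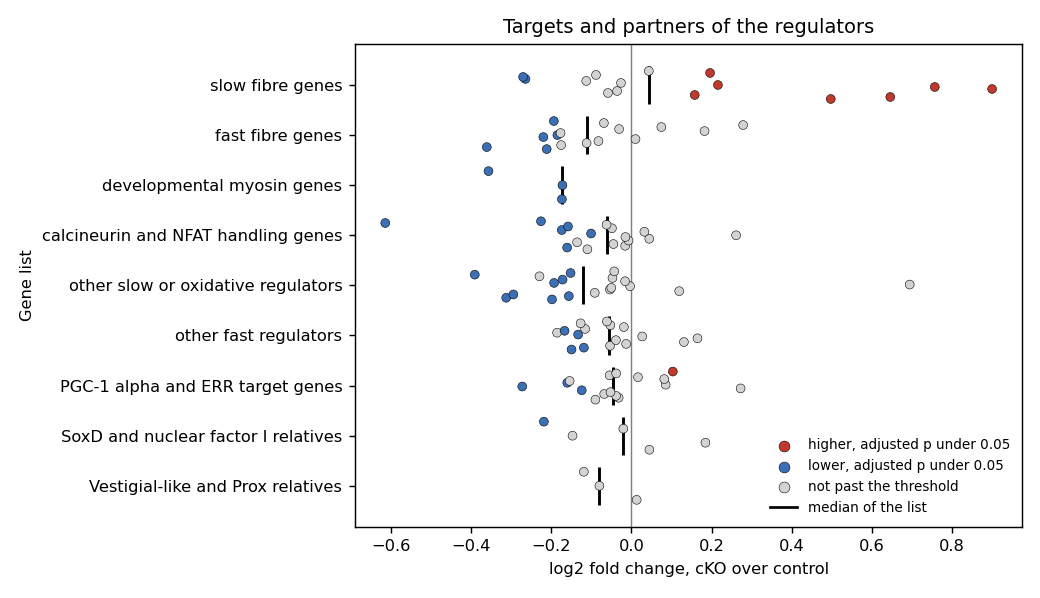
Log2 fold change of cKO over control for each tested gene of the 9 lists of fibre genes, partners and relatives, red or blue where the adjusted p was under 0.05, with a bar at each list's median. The slow-fibre list spans both directions, from -0.27 to 0.90, and the 7 red points in it are the only rises past the threshold besides Vegfa.

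The Myh7 promoter is shown because slow myosin is the best known target of both the NFAT and Sox6 groups. It lies at chr14:54994577-54994876 (GRCm38.p6, minus strand), with GGAAA and AACAAT in capitals on either strand.
Myh7 promoter: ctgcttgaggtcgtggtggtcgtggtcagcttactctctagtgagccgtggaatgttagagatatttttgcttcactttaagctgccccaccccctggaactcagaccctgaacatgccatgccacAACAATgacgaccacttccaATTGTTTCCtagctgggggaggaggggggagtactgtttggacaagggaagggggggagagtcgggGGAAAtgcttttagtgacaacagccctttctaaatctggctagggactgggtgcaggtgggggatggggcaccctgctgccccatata
The window held GGAAA 2 times, a number reached by 26.7% of promoters, and AACAAT 2 times, which 1.11% of promoters reach. The promoter of Myh7b, which had the larger log2 fold change of the pair, held neither (0 times each) at chr2:155610993-155611292 (plus strand). One pair overlaps, the run ATTGTTTCC in capitals. The Sox6 promoter (chr7:116038695-116038994, minus strand), the one of 6 in the table that is nearest to the GENCODE start, held GGAAA 1 time and AACAAT 0 times.
Sox6 promoter: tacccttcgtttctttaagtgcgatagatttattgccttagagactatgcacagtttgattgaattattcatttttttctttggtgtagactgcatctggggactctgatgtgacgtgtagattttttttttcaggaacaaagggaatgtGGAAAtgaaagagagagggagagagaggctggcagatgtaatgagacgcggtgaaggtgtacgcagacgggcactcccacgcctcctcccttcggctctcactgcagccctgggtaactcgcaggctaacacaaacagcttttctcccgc
Of all promoters 61.3% held GGAAA and 10.7% held AACAAT at least once. A match is a description of the letters and shows no binding.

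MicroRNA genes in the slow myosins were hardly covered by these libraries, which do not measure mature microRNAs. The miR-499 precursor had 0 to 2 counts and the miR-208b precursor 0 to 3 counts per library, so neither was tested. Their host genes rose while Sox6, whose sites are shown above, fell, and whether these are linked was not tested. Purb and Sp3, other repressors known as targets of these microRNAs and named for that reason, carry 6 and 1 GTCTTA matches. Purb stood at 937 ± 18.7 CPM in control against 879 ± 50.7 CPM in cKO (log2 fold change -0.12, adjusted p = 0.0508), with an adjusted p of 0.0227 by DESeq2, and Sp3 was at 127 ± 2.24 and 127 ± 0.926 CPM (adjusted p = 0.76).

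Other regulators that act beside the 10 mostly fell where they changed. Of 18 further slow or oxidative regulators 8 fell and 0 rose, beside 6.46% and 9.38% of all genes tested. Their median log2 fold change was -0.12. Prkaa2, the muscle AMPK catalytic subunit, fell from 18.2 ± 1.03 to 14.0 ± 1.62 CPM (log2 fold change -0.39, adjusted p = 0.00138). The MEF2 factors that act with NFAT on slow genes fell too, Mef2c from 564 ± 18.8 to 462 ± 19.1 CPM (-0.31, adjusted p = 3.07e-05) and Mef2a from 711 ± 7.81 to 630 ± 9.77 CPM (-0.20, adjusted p = 0.000202). Camk2b, a calcium-dependent kinase, fell by 0.29 on the log2 scale and kept its call in 2 of 6 omissions of a library. Without control replicate 2 or 3, 5 of the 18 passed.

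Of 16 further fast regulators 4 fell and 0 rose, beside 6.46% and 9.38% of all genes tested. Their median log2 fold change was -0.06. Those that fell included Bhlhe41 (46.3 ± 0.43 to 41.9 ± 0.342 CPM, log2 fold change -0.17, adjusted p = 0.00358), a repressor, Hdac5, which restrains MEF2 (-0.13), and Six4 (-0.12). Hdac5 and Six4 each kept their call in 2 of 6 omissions of a library, and both lost it with total-count scaling (adjusted p = 0.0594 and 0.0944). Without control replicate 1 or cKO replicate 3, 2 of the 16 passed. Of 12 satellite cell and myoblast markers 10 also fell in cKO and 0 rose. Relative to the control mean, the summed list was at 0.939, 0.890 and 0.901 in cKO replicates 1, 2 and 3. Sox6 was at 0.867, 0.878 and 0.912, a different order of replicates. The median log2 fold change of the 12 was -0.16, and their summed level was 10742 to 10801 CPM in control against 9588 to 10110 CPM in cKO. The part of this fall in the results above was not tested.

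Where 0 genes of a list passed in a direction with edgeR, the count was also taken without adjustment. At an unadjusted p under 0.05, 1 fast-fibre gene, 2 slow or oxidative regulators and 2 fast regulators were higher in cKO, and 0 each of the developmental genes, the calcineurin and NFAT handling genes and the Sox and nuclear factor I relatives. DESeq2 called 0 in each of these cases.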

How the data were processed

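Total RNA (400 ng) of 3 control and 3 cKO samples was depleted of ribosomal RNA and sequenced as single-end 75 bp reads. According to the submitters' notes, the authors aligned reads to mm10 with Bowtie2 2.3.4.2 and deposited raw counts per gene made with featureCounts 1.6.3. Bowtie2 does not split reads over exon junctions, so junction reads can be lost or placed on pseudogenes. The strand setting and the treatment of multi-mapping reads were not given in the sources used here. The deposited normalized table and the comparison table (DESeq2 2.11.40.6 fold changes and p-values) were not used.

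All 55536 identifiers matched GENCODE M21. Genes passing filterByExpr were scaled by TMM and tested with edgeR 4.0.16 in R 4.3.3 (quasi-likelihood test, genotype as the only term) with Benjamini-Hochberg adjustment, after testing on simulated data. Replicates varied by 3.92% (common biological coefficient of variation). Below 651 counts, counting error is the larger source of error. No replicate pair was a duplicate library. The members and the 9 gene and 8 marker lists were chosen with earlier results of these data known. Genes named from a list are up to 4 called genes per direction with the largest change, plus the skeletal myosin heavy chains. One gene that this rule names is not reported here. Alternatives were DESeq2 1.42.0, RLE or total-count scaling, no filter, a replicate block and omission of each sample. Sequences came from RefSeq GRCm38.p6 and GENCODE M21.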

Additional observations from a re-analysis of the deposited data

How the results depend on the processing

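Under 11 alternatives no called value changed direction. Sox6 and Nfatc4 passed in all 11, Nfatc3 in 5 and Nfatc1 in 1, and the other 6 regulators in 0. The log2 fold change of Nfatc1 was not past the threshold with DESeq2 (-0.18), total-count scaling (-0.15), no filter (-0.18) or the replicate block (-0.18), nor that of Nfatc3 with total counts (-0.12) or the block (-0.14). Leaving out each library gave -0.21 to -0.14 for Nfatc1 and -0.1722 to -0.0938 for Nfatc3. Of the 10 regulators, 1 was called lower (3 as reported) with total counts and with the block, and 1 to 2 with a library left out. All genes called lower numbered 917 to 1673 with a library left out (1448 as reported). Total-count scaling made 70.0% of calls higher in cKO, against 59.2%, with a median shift of 0.02.

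Called fast-fibre genes numbered 3 with DESeq2, 10 with no filter and 8 with the block (5 as reported), and 3 to 10 with a library left out. Called fast regulators numbered 7 with no filter (4 as reported) and 2 to 5 with a library left out. The same range was 3 to 6 for calcineurin and NFAT handling genes, 5 to 9 for slow or oxidative regulators and 2 to 5 for PGC-1α and ERR targets. Deviations of same-numbered samples correlated at -0.0145 to -0.00449, and those of differently numbered samples at -0.00738 to 0.0204. All lay near 0, and with 3 samples a side this cannot decide whether the samples were paired. The block gave 1901 genes higher and 1251 lower, and no sample correlated best with its own number. The causes of these shifts were not tested. Regulators under 651 counts, such as Nfatc2, Nfatc4, Ppargc1a and Esrrg, were limited mainly by counting error.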

Other observations

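The genes whose pattern over the 6 samples was most like that of each regulator past the threshold were sought among 16640 tested genes with a mean of at least 1 CPM, by the root mean square difference of log2 CPM after centring each gene on its mean. For Sox6 they were Bves, a membrane protein of muscle (difference 0.0112, log2 fold change -0.20, adjusted p = 0.000794), and Myo18a, an unconventional myosin (0.0169, -0.19, adjusted p = 0.00171). For Nfatc3 they were Ltn1, a ubiquitin ligase of stalled ribosomes (0.0108), and Asxl1, a Polycomb-associated protein (0.0110). The closest genes to Nfatc1 were the processed pseudogenes Gm20763 (0.0132, log2 fold change -0.16, adjusted p = 0.514) and Phf20-ps (0.0154, -0.15, adjusted p = 0.041). Gm20763 thus did not pass the threshold. Nfatc4 had its nearest patterns in Tnfrsf11b, the decoy receptor osteoprotegerin (0.0363, log2 fold change 0.91, adjusted p = 6.75e-07), and Cybb, an oxidase subunit of phagocytes (0.0487, 0.98, adjusted p = 1.98e-06). Tnfrsf11b is mainly a gene of stromal cells and Cybb of macrophages, and the part of such cells in the level of Nfatc4 was not tested.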
